A study of Mus musculus with 70 samples.

Results

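The weak pituitary-only TRβ sites were 5469 of the 8051 chromatin peaks at which tagged thyroid hormone receptor β (TRβ) was captured in untreated mouse pituitary, a share of 67.9%. They were chosen on measured values. A member held fewer than 30 reads from the libraries of tagged receptor, overlapped none of the 5164 peaks called in cerebral cortex, and overlapped none of the 1776 open-chromatin (ATAC) peaks that differed between hyperthyroid and hypothyroid pituitary. Of the 6352 pituitary peaks under the read limit, 507 were left out for a cortex peak and 396 for an ATAC peak, 20 of them for both. The other pituitary peaks were 900 strong pituitary-only sites with 30 reads or more, 810 sites shared with cortex but not at an ATAC peak, and 872 sites at T3-regulated ATAC peaks. A cortex peak that was not called is not evidence that the receptor was absent there, since calling depends on depth.

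TRβ-HAB peaks came from chromatin affinity purification and sequencing (ChAP-seq) of tissue from untreated, euthyroid males of 2 to 4 months, with 3 libraries for each tissue from mice with both alleles *Thrb*HAB and both *Rosa26* alleles BirA, called HAB;BirA, and 3 from control mice with the BirA alleles alone. The endogenous *Thrb* gene of HAB;BirA mice encodes a receptor with a tag that the BirA ligase biotinylates, and BirA mice carry the ligase without the tag. The genotype field of the untreated control samples named the tagged allele, so these were assigned by their titles. Each pituitary ChAP library held 12 pooled pituitaries, and the authors merged libraries before calling peaks, so that no value of a peak has a replicate error.

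RNA-seq compared wild-type males with males labelled *Thrb*-KO, at 2 to 4 months of age, each library being a pool of 3 pituitaries. Hypothyroid mice drank water with methimazole (MMI, 0.05%) and KClO4 (1%) over 4 to 5 weeks. Hyperthyroid mice received the same with 0.5 µg/ml T3 added for the final 1 week, so both conditions share the MMI treatment and neither is euthyroid. Wild type had 4 libraries in each condition and *Thrb*-KO had 5. The ATAC list came from males of the same age under the same hypothyroid and hyperthyroid treatments, from nuclei immunopurified through a Sun1-GFP label that a *Thrb* b2Cre driver induces in the anterior pituitary, and it states no direction of change.

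TRβ is a ligand-dependent transcription factor of the nuclear receptor family, which binds DNA with or without T3 and commonly pairs with a retinoid X receptor. The pair recognises repeats of the hexamer AGGTCA, and the classical thyroid hormone response element is a direct repeat with a 4-base spacer (DR4). In the pituitary, T3 represses the thyrotropin subunit genes and raises growth hormone, and TRβ is the main receptor of that feedback.

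The members with an unbroken DR4 show the element that was sought. In all, 11 members held an exact DR4 in the 200-bp window around the peak centre, with 11 to 25 HAB reads, and 7 of them lay in introns, 2 within 1 kb of a transcription start, 1 in an exon and 1 between genes. The 8 with the most reads are printed with 7 bases on each side, 5′ to 3′ on the strand that reads AGGTCA (build mm9), with the hexamers in capitals.
*2310061I04Rik* start, chr17:36033678-36033707 (+): ggatggcAGGTCAcccgAGGTCAagcctga
*Traf3ip2* and *E130307A14Rik* introns, chr10:39358717-39358746 (-): catgtacAGGTCAgacaAGGTCAccagcaa
*Xrcc6* and *Pppde2* start, chr15:81845817-81845846 (-): ccaggttAGGTCAagtcAGGTCAccctgag
*Pgm2* intron, chr4:99642177-99642206 (-): aaagtgcAGGTCAgagcAGGTCAcatgaca
*Slc25a33* intron, chr4:149133692-149133721 (-): gttgggcAGGTCAgtaaAGGTCAtggggat
*Jdp2* intron, chr12:86960975-86961004 (-): cgtgacaAGGTCAaatgAGGTCAcagtcag
*Aff3* intron, chr1:38555015-38555044 (-): ttctccgAGGTCAactcAGGTCAccagtca
*Bre* intron, chr5:32336117-32336146 (+): ctacaccAGGTCAagtcAGGTCAcctccct
The peaks held 25, 23, 23, 22, 18, 16, 14 and 14 HAB reads in that order. The repeat lay 4 to 69 bp from the peak centre in these 8.

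The members that ranked highest in the peak call are printed as a description. Only 11 of 5469 members held an exact repeat, so 3 sites cannot show whether it goes with rank. The 3 with the lowest false discovery rate had 28 or 29 HAB reads and no control read, and their best DR4 match, in capitals where the 12 compared bases lie, had 4 or 5 mismatches.
Intergenic, 12107 bp before the *Mgst2* start, chr3:51452123-51452152 (+): cgccgccCTCTCTcttcAGGACActctctt
*Grb10* exon, chr11:11832731-11832760 (+): taataatACATGAccagACGTCAgcacaac
*Tex264* start, chr9:106588062-106588091 (+): ggggcagAGGGCGgctcAGGCCGcggggag

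Whole peaks are printed for 3 genes to which the RNA results turn, all on the plus strand of mm9. *Dock6* and *Camkk2* rose on T3 in wild type, and their peaks held a DR4 with 2 mismatches and 1 mismatch, which is in capitals. Both were picked as called genes whose site held a DR4 of up to 2 mismatches. They therefore cannot show whether a DR4 goes with a rise. The peak before the prolactin gene *Prl* held an exact hexamer, in capitals, and its best DR4 had 3 mismatches.
*Dock6*, chr9:21655701-21656000, intron, 1229 bp after the start: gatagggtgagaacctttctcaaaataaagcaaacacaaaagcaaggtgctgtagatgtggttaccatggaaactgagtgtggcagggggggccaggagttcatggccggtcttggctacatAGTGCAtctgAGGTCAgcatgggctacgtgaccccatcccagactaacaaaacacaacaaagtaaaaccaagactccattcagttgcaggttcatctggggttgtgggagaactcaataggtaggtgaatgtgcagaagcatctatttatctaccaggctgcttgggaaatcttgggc
*Camkk2*, chr5:123228701-123229000, intron, 541 bp after the start: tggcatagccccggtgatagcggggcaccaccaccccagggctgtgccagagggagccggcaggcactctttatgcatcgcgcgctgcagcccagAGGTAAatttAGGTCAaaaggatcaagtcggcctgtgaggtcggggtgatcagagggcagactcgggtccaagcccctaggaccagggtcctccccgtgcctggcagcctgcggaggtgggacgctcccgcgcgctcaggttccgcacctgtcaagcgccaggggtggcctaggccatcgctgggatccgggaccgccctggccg
*Prl*, chr13:27148351-27148550, 989 bp before the start: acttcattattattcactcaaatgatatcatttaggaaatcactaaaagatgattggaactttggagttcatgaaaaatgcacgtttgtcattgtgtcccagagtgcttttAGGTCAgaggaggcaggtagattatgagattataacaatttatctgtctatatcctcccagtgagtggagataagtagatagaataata

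The peaks themselves were small and carried little control signal. HAB reads ran from 8 to 29 with a median of 15, the control held 0 to 8 reads with a median of 1, and 1091 members (19.9%) had no control read. The authors' fold over control ran from 2.92 to 96.8 (median 10.0), and the false discovery rate from 1.94e-47 to 6.87e-07 (median 1.34e-10). These values chose the members and are given as a description. At the read limit, 83 members held 29 reads, and 53 pituitary-only peaks just outside held 30. The highest false discovery rate belonged to peaks such as one in the coding exon of *C1qtnf4*, with 21 HAB reads against 5 control reads. Members had a median width of 300 bp (50 to 750), against 400 bp for strong sites.

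Weak sites lay mostly away from gene starts, but less so than strong ones. Of the 5469, 2235 (40.9%) had their centre in an intron, 1793 (32.8%) between genes, 1252 (22.9%) within 1 kb of a transcription start, 82 (1.50%) in a coding exon and 107 (1.96%) in another exon. The share at starts was 17% among strong sites, 5.89 percentage points lower (95% interval of the difference 3.08 to 8.47, Fisher's exact test, two-sided, adjusted p = 1.20e-04 over 15 position tests). It was 66.8% among sites shared with cortex (adjusted p = 1.33e-130) and 4.82% among sites at T3-regulated ATAC peaks (adjusted p = 2.34e-43). In introns the weak and strong shares, 40.9% and 41.7%, differed by -0.800 points (-4.30 to 2.64, adjusted p = 0.708), which the test did not separate. Peaks are not samples, and such tests and the 95% Wilson intervals of shares cover counting over peaks only.

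Members had another pituitary peak close by less often than strong sites did. Another pituitary peak lay within 2 kb of 475 members (8.69%), against 14.4% of strong sites (difference -5.76 points, -8.31 to -3.48, adjusted p = 4.66e-07), and in 301 of the 475 the nearest one was itself weak. The median gap to the next pituitary peak was 48351 bp. A cortex peak lay within 500 bp of 88 members without touching them, and a T3-regulated ATAC peak within 500 bp of 27. Density ran from 1.58 members per megabase on chromosome 14 to 3.13 on chromosome 11 among the autosomes, and was 0.246 on chromosome X, where 41 members lay. The X-linked share of 0.750% was not separated from the 0.333% of strong sites (difference 0.416 points, -0.255 to 0.761, adjusted p = 0.245). Males carry 1 X chromosome, and its part in that density was not tested.

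The DR4 was the one spacing that stood well above neighbouring sequence. Counting up to 2 mismatches among the 12 hexamer bases, 762 members (13.9%, 95% interval 13 to 14.9) held a DR4 in the 200-bp window, against 119 (2.18%, 1.82 to 2.60) of windows 10 kb from the same peaks. Every other spacer from 0 to 8 bases was found in 3.05% to 4.53% of members, and in 1.90% to 3.18% of the windows 10 kb away. An inverted repeat without spacer was found in 1.77% of members (0.841% of the windows 10 kb away) and an everted repeat with 6 bases in 2.30% (0.786%). The search read both strands, and repeats of different spacing can share a hexamer.

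**Figure D1:**
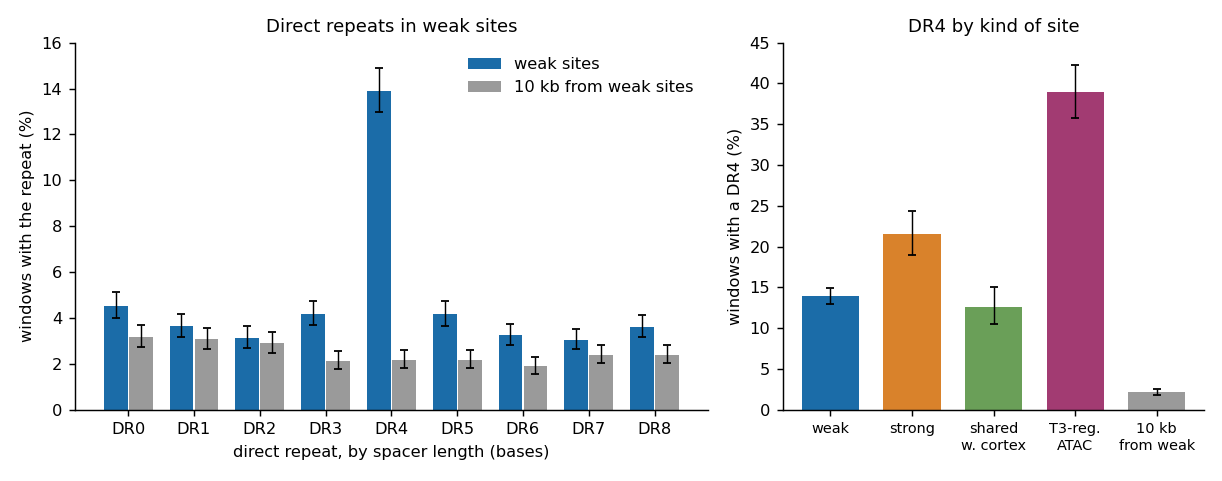
The left panel plots the percent of 200-bp windows with a direct repeat of AGGTCA (up to 2 mismatches) by spacer length, for weak sites (blue) and windows 10 kb away (grey), and the right panel the percent with a DR4 for each kind of site, with 95% Wilson intervals as bars. DR4 stands at 13.9% of weak sites against 2.18% of windows 10 kb away, below the 21.6% of strong sites and the 39% of sites at T3-regulated ATAC peaks.

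Weak sites held fewer DR4 elements than strong sites or sites with a T3-dependent ATAC peak. The share was 21.6% in strong sites, so that weak sites were lower by 7.62 points (95% interval of weak minus strong -10.6 to -4.89, Fisher's exact test, two-sided, adjusted p = 1.03e-07 over 72 motif tests). At T3-regulated ATAC peaks it was 39%, a difference of -25.1 points (-28.5 to -21.7, adjusted p = 4.51e-60). Sites shared with cortex held a DR4 in 12.6%, and the difference of 1.34 points (-1.28 to 3.65, adjusted p = 0.442) was not separated from zero. Mean GC content was 52.2% in both weak and strong windows, and 45.2% in windows 10 kb from weak sites.

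Most members carried a degraded repeat or none. The best match had 0 mismatches in 11 members, 1 in 126, 2 in 625 and 3 in 1453 (26.6%, against 14.4% of windows 10 kb away). In a further 2309 (42.2%) the best match had 4 mismatches, and there 50.5% of windows 10 kb away did as well. A single exact hexamer was found in 1371 members (25.1%), against 13.1% of windows 10 kb away, 33.7% of strong sites (difference -8.60 points, adjusted p = 6.73e-07) and 15.8% of sites shared with cortex (9.27 points, adjusted p = 2.00e-08).

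Among the 762 repeats, mismatches fell evenly on the upstream and the downstream hexamer, which had the more mismatches in 188 members each and was exact in 199 members each (26.1%). They were not even within a hexamer. Counting from 1 at the 5′ end of the repeat, the G at position 12 was kept in 96.5% of repeats, and the T at position 14 in 64.2%, the lowest of the 12. In the spacer, T was the most frequent base at position 9 (41.1%), and in the 340 repeats at T3-regulated ATAC peaks it stood there in 51.2%. These shares describe repeats chosen for their match, and the mismatch limit itself bounds them. The 762 repeats had 739 different 16-base sequences, and no sequence occurred in more than 3 members.

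DR4 elements were centred on the peaks. In the 100-bp bins on either side of the peak centre, 7.04% and 7.53% of members held one, falling to 1.01% and 1.17% in the bins centred 250 bp away. Repeats lay a median of 33 bp from the peak centre, within the window searched. Strong sites reached 11.4% and 10.9% in the same central bins, and sites at T3-regulated ATAC peaks 20.1% and 22.0%.

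**Figure D2:**
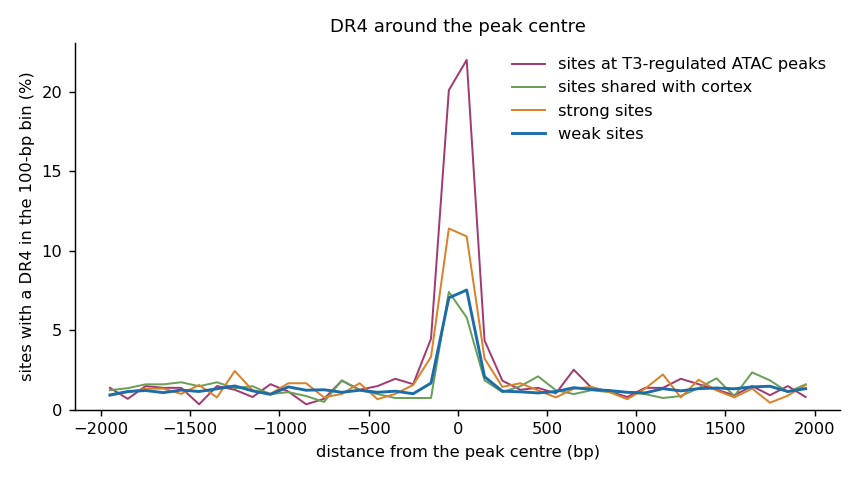
Percent of sites with a DR4 (up to 2 mismatches) in each 100-bp bin, by distance of the bin from the peak centre in bp, for the 4 kinds of site. The weak sites (thick blue line) rise to 7.53% beside the centre, against 1.01% and 1.17% at 250 bp, and the sites at T3-regulated ATAC peaks reach 22.0%.

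Within the weak sites the DR4 share followed the read count. It was 11.5% (95% interval 9.01 to 14.7) at 8 to 11 reads, 10.2% (8.98 to 11.7) at 12 to 14, 12.9% (11.3 to 14.6) at 15 to 19, 19.8% (17.3 to 22.5) at 20 to 24 and 23.5% (20.1 to 27.3) at 25 to 29. Strong sites of 30 to 39 reads had 20.3% (16.9 to 24.2), those of 40 to 59 reads 24.2%, and those of 60 or more 20.0%. The members of 20 to 29 reads thus held the repeat about as often as strong sites, and the interval of the lowest class, at 8 to 11 reads, still lay above the 1.82% of its windows 10 kb away. The read count was part of the rule, and the relation is given without a test. By fold over control there was no such rise: members with a fold under 5 held a DR4 in 17.4%, and those with a fold of 20 or more in 14.3%.

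**Figure D3:**
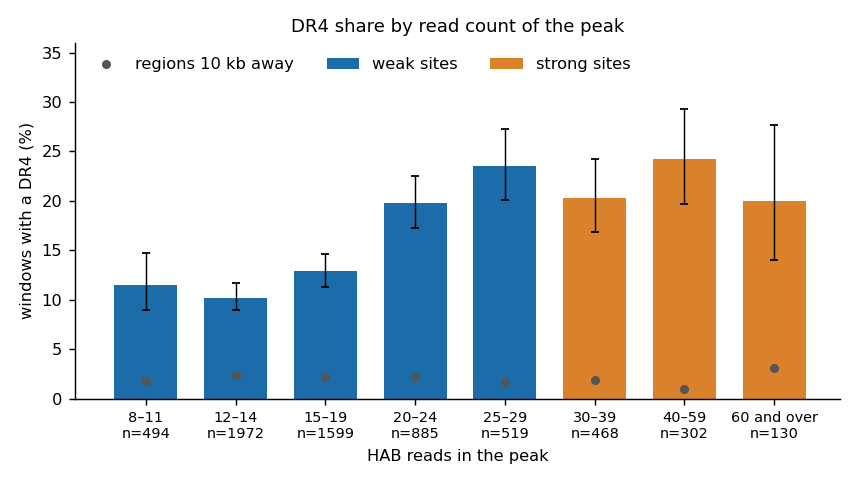
Percent of 200-bp windows with a DR4 by the number of HAB reads in the peak, with 95% Wilson intervals; blue bars are weak sites, orange bars strong sites, and grey points the windows 10 kb away. The share lies between 10.2% and 12.9% below 20 reads and at 19.8% or more from 20 reads up.

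Members at gene starts differed in sequence from the rest. The 1252 members within 1 kb of a start had a mean GC content of 62.2% and a median of 13 CpG dinucleotides per window, against 49.2% and 2 in the 4217 distal members. They held a DR4 in 9.35%, against 15.3% of distal members (difference -5.95 points, -7.81 to -3.92, Fisher's exact test, two-sided, adjusted p = 5.14e-08 over 11 words), and an exact AGGTCA hexamer in 16.7% against 27.6% (adjusted p = 4.05e-15). The GC box GGGCGG, the word of SP and KLF factors, was in 41.9% of members at starts and 5.45% of distal members, and the ETS word CCGGAAG in 6.71% and 0.925% (adjusted p = 2.32e-196 and 1.42e-26). Distal members more often held the AP-1 word TGACTCA (7.97% against 2.40%), the word TAATCC of PITX-type homeodomain factors (9.82% against 3.67%) and ATGAATA, the word of the pituitary factor POU1F1 (5.29% against 1.28%), with adjusted p from 2.69e-11 to 8.80e-14 for the 3 words. In the windows 10 kb from distal members these 3 words were found in 3.18%, 7.92% and 3.56%. In those 10 kb from members at starts they were found in 4.07%, 9.66% and 2.16%, more often than in the members at starts themselves.

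Weak sites were also poorer than strong sites in several words of other factors. POU1F1 words were in 4.37% of weak and 7.11% of strong sites (adjusted p = 0.00271 over the 72 tests), E-boxes of the form CAGCTG in 17.1% and 23.1% (adjusted p = 1.32e-04), and AP-1 words in 6.69% and 9.33% (adjusted p = 0.0184). The GATA word AGATAA was in 8.32% of weak and 8.89% of strong sites (difference -0.569 points, -2.73 to 1.28, adjusted p = 0.695), and was at 11% in windows 10 kb away. All these are letter matches in the window and not observed binding of the factors.

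The distal and the start members gave the same direction against strong sites. Distal weak sites held a DR4 in 15.3% and distal strong sites in 23.2% (-7.86 points, -11.2 to -4.77, Fisher's exact test, two-sided, unadjusted p = 2.55e-07). At starts the shares were 9.35% and 13.7% (-4.38 points, -10.9 to 0.509, unadjusted p = 0.112), a difference that 153 strong sites at starts could not separate from zero.

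Turning to RNA, 2996 of the 13145 genes tested had a weak site within 20 kb of the gene body and no other TRβ-HAB peak or T3-regulated ATAC peak there. They are called genes near weak sites only, and 2684 members (49.1%) lay near such a gene. Of these genes, 2350 had 1 weak site, 490 had 2 and 156 had 3 or more (at most 8). A gene was called when its Benjamini-Hochberg adjusted p over all genes tested (limma on log2(CPM + 1), CPM being a gene's reads scaled to the library total) was under 0.05 and its change at least 1.5-fold. RNA values did not choose the sites, but the rule left out sites at ATAC peaks that differed between the same treatments that the RNA compares. Counts of genes called on T3 are therefore not independent of the rule and are given as a description, and distance does not show that a site acts on a gene.

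The libraries held about 21500000 to 55300000 reads, and the pituitary hormones identified the tissue, with *Gh* at 48332 to 159094 CPM over all 18 libraries. *Thrb* RNA itself stood at 239 to 295 CPM in hypothyroid and 228 to 301 CPM in hyperthyroid libraries labelled *Thrb*-KO, no lower than the 239 to 297 and 72.4 to 124 CPM of wild type. The value is given per transcript and not per exon, so it does not check the deletion. Replicates 1 and 2 of each group stood apart from replicates 3 to 5 in other genes, such as *Lars2*, which in hypothyroid wild type reached 2899 CPM in the first set and was as low as 53.2 CPM in the second. The library of hyperthyroid wild-type replicate 3 had a TMM scaling factor of 0.849, where the others had 0.982 to 1.04.

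Within 20 kb, genes near weak sites only were called on T3 in a share close to that of all genes, and the share that rose moved with the distance and read limits. In wild type 94 of them rose (3.14%, 95% interval 2.57 to 3.82) and 177 fell (5.91%, 5.12 to 6.81) in hyperthyroid against hypothyroid mice, where over all genes tested 3.87% rose and 5.59% fell. Both directions together came to 9.05% against 9.46%, and the median log2 change was -0.058 against -0.040. At 20 kb these shares lie near the background and are no result about the sites. With a distance of 5 kb, 95 of 2247 genes rose (4.23%) and 136 fell (6.05%), and with 100 kb, 81 of 3957 rose (2.05%) and 248 fell (6.27%). Each distance applied to the weak sites and also to the other peaks that leave a gene out. The sets thus change on both counts, and the shares do not isolate closeness to a weak site. With weak sites limited to under 20 reads, and those of 20 reads or more counted as other peaks, 52 of 2141 genes rose (2.43%). This stood beside the same 3.87% of all genes. Genes near a strong site without an ATAC peak rose in 10.1% and fell in 4.31%, genes near a TRβ site at an ATAC peak rose in 26.5% and fell in 4.18%, and genes near no site rose in 1.74% and fell in 5.83%. Median levels also differed, at 25.3 CPM near weak sites only, 33.6 near strong sites and 17.5 near no site.

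The split between directions depended on library scaling. With edgeR and TMM factors on the recovered reads, 142 genes near weak sites only rose (4.74%) and 165 fell (5.51%). Over all genes tested, 5.46% rose and 5.14% fell. The rising share of calls thus moved from 34.7% to 46.3% near weak sites only, and from 40.9% to 51.5% over all genes tested. Leaving out hyperthyroid wild-type replicate 3 gave 125 (4.17%, beside 4.94% of all genes) and 160 (5.34%, beside 5.20%). The median change over all genes was -0.040 as deposited and 0.035 with TMM. The called genes whose 4 and 4 wild-type libraries did not overlap numbered 241 (8.04%), of which 76 were higher and 165 lower, beside 8.19% of all genes tested. Within replicates 1 and 2 alone 110 rose (3.67%, beside 4.24% of all genes) and 170 fell (5.67%, beside 5.29%). Within replicates 3 and later alone 108 rose (3.6%, beside 4.20%) and 234 fell (7.81%, beside 7.27%).

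**Figure D4:**
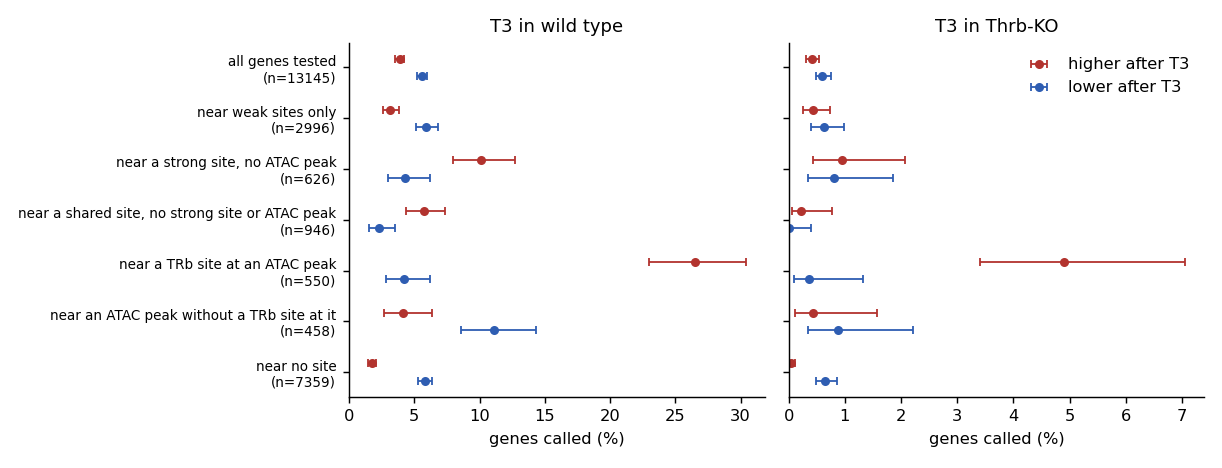
Percent of genes called higher (red) or lower (blue) on T3, with 95% Wilson intervals, in wild type (left) and in libraries labelled *Thrb*-KO (right), by the TRβ and ATAC peaks within 20 kb. Genes near weak sites only stand at 3.14% and 5.91% in wild type, beside 3.87% and 5.59% of all genes, and genes near a TRβ site at an ATAC peak at 26.5% and 4.18%.

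The share of genes that rose varied with the reads and the DR4 of the weak sites nearby. By the most HAB reads of any weak site nearby, 1.91% (95% interval 1.27 to 2.85) of 1206 genes with 8 to 14 reads rose, 3.10% (2.17 to 4.42) of 935 with 15 to 19, and 4.91% (3.65 to 6.57) of 855 with 20 to 29, while 6.47%, 5.88% and 5.15% fell. Of 459 genes with a DR4 in a weak site 5.23% (3.54 to 7.66) rose, and of 2537 without one 2.76% (2.19 to 3.47), while 6.10% and 5.87% fell. Among 698 genes with a weak site within 1 kb of a start, 3.30% rose and 4.01% fell. The read count was part of the rule that chose the sites. The DR4 share of members also followed it, from 10.2% at 12 to 14 reads to 23.5% at 25 to 29, so these groupings are not separate. The shares of genes also varied with the number of weak sites nearby, which the highest read count can follow. With 1, 2 and 3 or more sites, 2.72%, 4.90% and 3.85% rose, and 5.45%, 6.73% and 10.3% fell. These subsets were read against the 3.87% and 5.59% of all genes, with no test between them.

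In the libraries labelled *Thrb*-KO, 32 genes near weak sites only changed on T3, which is 1.07% beside 1.01% of all genes tested. Of these 13 were higher and 19 lower, where 0.411% and 0.601% of all genes were. The T3 response differed between genotypes for 131 of them (4.37%, beside 4.26% of all genes), being higher in *Thrb*-KO for 78 (2.60%, beside 2.48%) and lower for 53 (1.77%, beside 1.78%). Of the 94 genes that rose in wild type, 12 (12.8%) were also called higher in mice labelled *Thrb*-KO and 46 (48.9%) had a called difference toward a smaller or opposite response, beside 8.84% and 42.6% of all 509 genes that rose. The median log2 change was 0.92 in wild type and 0.16 in *Thrb*-KO, beside 0.88 and 0.21. Of the 177 that fell, 15 (8.47%) were called lower and 73 (41.2%) had a smaller or opposite response, beside 9.25% and 41.1% of all 735 that fell, with medians of -0.78 and -0.21 beside -0.81 and -0.24. The wild-type medians come from genes picked on those same libraries, and the difference between genotypes uses them too. Between genotypes, 91 of these genes differed in hypothyroid mice (3.04%, beside 3.02%), 32 of them higher in *Thrb*-KO (1.07%, beside 1.01%) and 59 lower (1.97%, beside 2.01%). In hyperthyroid mice 160 differed (5.34%, beside 4.86%), 93 higher (3.10%, beside 2.54%) and 67 lower (2.24%, beside 2.32%).

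Among the genes with the largest rise, *Dock6*, which encodes a guanine nucleotide exchange factor, had 35.0, 35.6, 23.9 and 22.5 CPM in hypothyroid and 252, 303, 153 and 336 CPM in hyperthyroid wild type. The groups did not overlap, and the log2 change was 3.08 ± 0.20 (SE, limma adjusted p = 2.66e-09). Libraries labelled *Thrb*-KO went from 30.9 to 42.8 CPM to 59.2 to 76.2 CPM, a log2 change of 0.78 ± 0.18 (limma adjusted p = 0.0252). The change was 2.93 within replicates 1 and 2 and 3.23 within replicates 3 and 4, and the other 7 largest rises and the 8 largest falls kept their direction in each set as well. The single weak site of *Dock6*, printed above, held 23 HAB and 3 control reads.

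*Col24a1*, a fibrillar collagen gene with a weak site of 14 reads 111 bp before its start, had 4.68, 6.21, 6.31 and 8.30 CPM in hypothyroid and 48.2, 60.2, 23.8 and 45.6 CPM in hyperthyroid wild type (log2 change 2.57 ± 0.24, limma adjusted p = 3.04e-07). In libraries labelled *Thrb*-KO the direction was the opposite. There 14.5, 18.1, 30.8, 28.0 and 19 CPM in hypothyroid mice stood above 10.1, 10.7, 9.39, 9.33 and 9.79 CPM in hyperthyroid mice, a log2 change of -1.04 ± 0.22 (limma adjusted p = 0.0121). None of these 4 groups overlapped its counterpart.

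*Camkk2*, a calcium/calmodulin-dependent protein kinase kinase gene, rose from 14.9, 15.8, 8.33 and 8.63 CPM to 60.3, 49.3, 35.2 and 33.7 CPM in wild type (log2 change 1.83 ± 0.22, limma adjusted p = 4.58e-06), and the change in libraries labelled *Thrb*-KO, 0.43 ± 0.19, did not pass (adjusted p = 0.525). Its site, with 20 reads, carries the closest DR4 match of the sites of these named genes, at 1 mismatch. *Dbc1*, with a site of 13 reads 31 bp after its start and no DR4 within 4 mismatches, rose by a log2 change of 1.71 in wild type and 1.00 in libraries labelled *Thrb*-KO.

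The other largest rises were *6030419C18Rik* (log2 change 2.34), the adiponectin-related *C1qtnf1* (2.20), the fucosyltransferase gene *Fut2* (2.18), the dynein intermediate chain gene *Dnaic2* (2.16) and *Rasgrp1*, an activator of Ras (1.73). Their wild-type groups did not overlap, and in libraries labelled *Thrb*-KO the changes were 1.3, 1.20, 1.70, 1.17 and 0.07. The first 4 of these 5 were called in both genotypes. The site near *Rasgrp1* lies in an intron of *Fam98b*, so its nearest gene is another one. *C1qtnf1* and 1 of the 2 sites near *6030419C18Rik* carried a DR4 with 2 mismatches, and the best matches for *Fut2*, *Dnaic2* and *Rasgrp1* had 4, 5 and 5.

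Of the genes that fell, *Prss28*, a serine protease gene, went from 229, 207, 869 and 611 CPM to 1.78, 1.54, 13.8 and 7.54 CPM in wild type, a log2 change of -6.19 ± 0.48 (limma adjusted p = 2.85e-08). In libraries labelled *Thrb*-KO it fell from 135 to 206 CPM to 8.64 to 14.0 CPM (-3.87 ± 0.43, limma adjusted p = 1.82e-05). The groups did not overlap in either genotype, and replicates 1 and 2 of wild type were below replicates 3 and 4 in both conditions. Its weak site, 13 reads, lies 10234 bp after its start and 226 bp after the start of its neighbour *Prss29*.

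*Creb3l1*, a membrane-bound transcription factor gene of the secretory pathway, had 156, 134, 195 and 193 CPM in hypothyroid and 19.1, 16.6, 19.1 and 16.4 CPM in hyperthyroid wild type (log2 change -3.16 ± 0.13, limma adjusted p = 8.82e-12). Libraries labelled *Thrb*-KO were low in both conditions, at 24.6 to 33.9 and 18.9 to 26.3 CPM, and their change of -0.35 ± 0.12 did not pass (adjusted p = 0.207). In hypothyroid mice those libraries were lower than wild type by a log2 difference of -2.56 ± 0.12 (limma adjusted p = 3.45e-10).

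*Chgb* encodes chromogranin B, a protein of secretory granules, and has a weak site of 16 reads 411 bp after its start. It fell from 11823, 12048, 23334 and 21979 CPM to 3295, 3548, 4788 and 4677 CPM (log2 change -2.03 ± 0.20, limma adjusted p = 7.52e-07), and by a log2 change of -1.12 in libraries labelled *Thrb*-KO (adjusted p = 0.00129). The difference between the T3 responses, 0.91, missed the threshold (adjusted p = 0.0642). The remaining falls were *Nell2* (log2 change -2.78), *Cgref1* (-2.64), the cadherin gene *Cdh13* (-2.17), the calcium pump gene *Atp2a3* (-2.04) and the adhesion gene *Sdk1* (-1.89). The site near *Cgref1* lies 229 bp before the start of *Khk*. In libraries labelled *Thrb*-KO, *Nell2*, *Cdh13* and *Sdk1* were called lower (-1.65, -0.80 and -0.84), and *Cgref1* and *Atp2a3* were not (-0.89 and -0.35). Among the falls, the site nearest the start of *Cdh13* held a DR4 with 2 mismatches. In the nearest sites of *Prss28*, *Creb3l1*, *Chgb*, *Nell2*, *Cgref1*, *Atp2a3* and *Sdk1* the best match had 3 to 5.

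RNA of a whole gland cannot tell fewer cells of a type from less RNA per cell. *Tshb*, the thyrotropin subunit gene that marks thyrotrophs, moved along with these falls, from 2902 to 6462 CPM in hypothyroid to 40.5 to 422 CPM in hyperthyroid wild type, and from 3212 to 4832 to 84.9 to 169 CPM in libraries labelled *Thrb*-KO, and its part in them was not tested. Of the marker genes of other cells, 0 of 5 endothelial, 0 of 4 tested immune, 0 of 3 erythroid and 0 of 4 tested folliculostellate and stem genes were called on T3 in wild type, while 1 of 5 stromal genes was lower (summed level 310 to 398 CPM in hypothyroid and 232 to 371 CPM in hyperthyroid wild type). No marker of these 23 genes was at 0 throughout a group. The summed erythroid level was 28.5 to 55.5 CPM in hypothyroid and 65.7 to 77.7 CPM in hyperthyroid wild type, and the summed immune level was 45.3 to 83.5 CPM in wild type and 34.8 to 46.8 CPM in libraries labelled *Thrb*-KO, and the part of either was not tested.

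**Figure D5:**
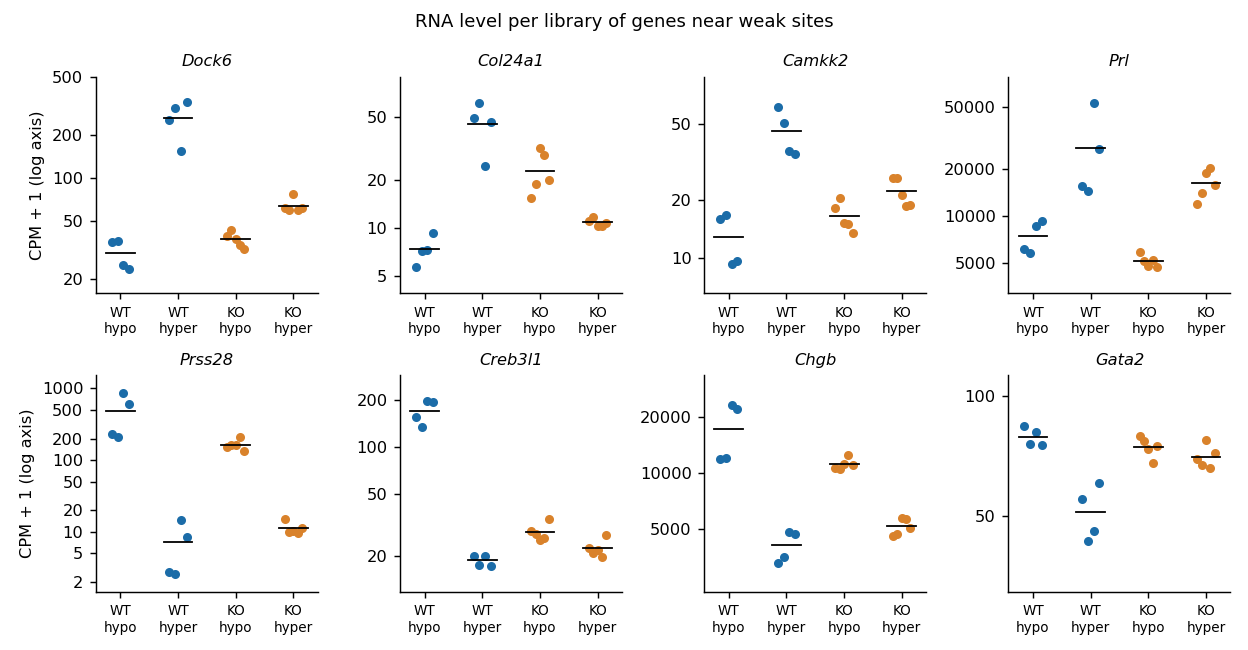
RNA level in CPM + 1 on a log axis for 8 genes near weak sites only, each point 1 library and each line a group mean, in hypothyroid and hyperthyroid wild type (blue) and *Thrb*-KO (orange) libraries as labelled. *Dock6* and *Camkk2* rise and *Creb3l1* falls more in wild type than in *Thrb*-KO libraries. *Col24a1* moves in opposite directions in the genotypes, and *Prss28*, *Chgb* and *Prl* move the same way in both.

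Of the 7 pituitary hormone genes, *Prl*, *Lhb* and *Fshb* were near weak sites only, beside 22.8% of all genes tested. Of these 3, 1 was called on T3 in wild type, beside 9.46% of all genes tested. Counts this small are no result about the sites. *Prl* rose from 6178, 5863, 8631 and 9334 CPM to 15603, 14523, 53184 and 26905 CPM in wild type (log2 change 1.70 ± 0.31, limma adjusted p = 4.91e-04), and from 4718 to 5917 CPM to 12031 to 20407 CPM in libraries labelled *Thrb*-KO (1.63 ± 0.27, limma adjusted p = 0.00173). The highest value, 53184 CPM, is hyperthyroid replicate 3, and without it the wild-type change was 1.31 (adjusted p = 3.59e-04). The gonadotropin genes *Lhb* and *Fshb* had changes of 0.22 and -0.18, with overlapping groups (adjusted p = 0.292 and 0.517).

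Of the 18 tested lineage transcription factors, 6 were near weak sites only, beside 22.8% of all genes tested. Of these 6, 1 rose and 1 fell, where 3.87% and 5.59% of all genes tested did. So few genes give no result about the sites. *Six6*, a homeodomain factor of pituitary development, rose from 96.6, 96.1, 84.0 and 89.0 CPM to 158, 182, 147 and 168 CPM (log2 change 0.83 ± 0.09, limma adjusted p = 1.04e-06). *Gata2*, a factor of thyrotrophs and gonadotrophs with a weak site of 14 reads 235 bp before its start, fell from 82.9, 74.7, 80.1 and 74.4 CPM to 54.0, 42.2, 44.6 and 59.5 CPM (-0.64 ± 0.10, limma adjusted p = 7.79e-05), just past the fold limit, which it missed with TMM scaling (-0.58). The groups of both genes did not overlap. *Six3* (0.52), *Insm1* (-0.40) and *Pitx1* (-0.01) did not pass, and over the 18 factors 3 were higher and 2 lower.

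Of 32 tested genes in the lists of hormone receptors, of thyroid hormone receptors and their partners, and of thyroid hormone transport, 5 were near weak sites only (15.6%, beside 22.8% of all genes tested) and 0 of the 5 were called in wild type. Nothing is read from so few. The dopamine receptor gene *Drd2* (0.36, adjusted p = 0.0575) and the somatostatin receptor gene *Sstr1* (0.26) were the 2 of 13 tested receptors, the coactivator genes *Ncoa2* (-0.24) and *Crebbp* (-0.10) the 2 of 14 receptors, partners and cofactors, and *Slc7a5* (-0.18), a transporter that carries thyroid hormone, the 1 of 5 transport and deiodination genes. Of 13 tested T3 target genes known from other tissues, 5 rose and 0 fell in wild type. *Me1*, *Atp2a1*, *Mbp* and *Cpt1a* were near weak sites only, 4 of the 13 beside 22.8% of all genes tested. Of these 4, 1 rose in wild type, beside 3.87% of all genes tested. It was the calcium pump gene *Atp2a1* (log2 change 0.73 ± 0.15, limma adjusted p = 0.00136), which rose in both genotypes (0.67 in libraries labelled *Thrb*-KO). Its level was low, at 2.65 to 3.11 CPM in hypothyroid and 4.70 to 7.28 CPM in hyperthyroid wild type. The site nearest its start lies 356 bp before the start of *Sh2b1*. *Me1*, the malic enzyme gene, has a weak site of 21 reads 103 bp before its start and a change of 0.13 (adjusted p = 0.480).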

How the data were processed

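The authors aligned ChAP-seq reads to mm9, pooled replicate libraries and ran SICER 1.1 on HAB;BirA against BirA reads. The deposited lists give each peak's counts of HAB and control reads, its p-value and false discovery rate, and a fold (ratio) over control scaled by the authors. The deposited ATAC list was used only for its positions, since its adjusted p-value states no direction. The deposited RNA table gives CPM per RefSeq transcript. The methods name BBMap for RNA and the submitters' processing notes list STAR, Bowtie2, MACS2 and edgeR without roles.

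Peaks overlapping by 1 bp or more were counted as shared. Windows of 200 bp at peak centres and 10 kb away were read from mm9 and searched on both strands. Shares were compared by Fisher's exact test, two-sided, with Newcombe 95% intervals. One transcript per gene was kept (highest mean CPM), and 13145 genes above 1 CPM in all 18 libraries were fitted with limma 3.58.1 (R 4.3.3, trend, pseudocount 1) on all 4 groups. The table holds CPM, so edgeR 4.0.16, with TMM factors or the size factors of DESeq2 1.42.0, ran as an alternative on reads recovered from the CPM steps (100% of values whole within 0.02). Genes were placed on mm9 by symbol (98.4%). Scripts were tested on simulated data.

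The named genes were those near weak sites only with the 8 largest rises and 8 largest falls among called genes with non-overlapping wild-type libraries, the 5 largest changes with a site at a start, and the listed genes. The members and lists were chosen with earlier results of these data known. Libraries with the same replicate number deviated together in all 25 pairs between groups (r from 0.13 to 0.815), so the number was also fitted as a block. The labels do not say what a shared number means, and only 5 of 18 libraries correlated best with their own number. The deviations went with the sets of replicates that stood apart in *Lars2*. Between groups, the median r was 0.529 for libraries of the same set and -0.548 for libraries of different sets. The main fit on the 4 groups has no term for the set. Its p-values therefore measure the spread between pooled samples together with the gap between the sets. An alternative fit had a term for the set. Each of its 6 gene counts stayed within a factor of 1.5 of the main count. Intervals cover counting error only. ChAP-seq of treated mice and histone ChIP-seq were not analysed here. The value of 1 listed gene is not reported here.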

Additional observations from a re-analysis of the deposited data

Results flagged for a closer look

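Among 35 named genes the T3 response differed between wild type and libraries labelled *Thrb*-KO in 15 by the limma interaction test (*Thrb*-KO minus wild type, log2). The response was less positive for *Dock6* (-2.31, adjusted p = 2.72e-05), *Col24a1* (-3.61, adjusted p = 1.25e-06), *6030419C18Rik* (-1.04, adjusted p = 0.00435), *C1qtnf1* (-1.0, adjusted p = 0.00332), *Dnaic2* (-0.98, adjusted p = 0.00989), *Camkk2* (-1.40, adjusted p = 0.00585), *Rasgrp1* (-1.66, adjusted p = 0.0135) and *Dbc1* (-0.71, adjusted p = 0.00444). It was less negative for *Prss28* (2.32, adjusted p = 0.0438), *Creb3l1* (2.82, adjusted p = 1.0e-08), *Nell2* (1.14, adjusted p = 3.97e-04), *Cgref1* (1.75, adjusted p = 0.0131), *Cdh13* (1.37, adjusted p = 0.00439), *Atp2a3* (1.69, adjusted p = 5.26e-05) and *Sdk1* (1.05, adjusted p = 0.0120). Named genes were picked on their wild-type response, which enters this difference, and 4.26% of all genes tested had such a call.

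One library stood apart from its group. *Dock6* was at 76.2 CPM in replicate 3 of the hyperthyroid libraries labelled *Thrb*-KO, and the other 4 lay between 59.2 and 60.4 CPM. It was the 1 such case in 140 groups of named genes, where chance gives about 1 in 20.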

How the results depend on the processing

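All 6 other settings tried kept the lower DR4 share of weak sites against strong sites (-13.7 to -1.83 points) and against sites at T3-regulated ATAC peaks past the threshold, as 6 settings did the higher share at starts (3.66 to 6.73 points). Against sites shared with cortex the difference was 1.27 points at up to 1 mismatch (Fisher's exact test, p = 0.0244), and it turned to -1.15 points with weak sites under 20 reads (Fisher's exact test, p = 0.368). A setting that drops windows rich in lower-case repeats was not run, since the genome sequence carried no lower case.

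Genes near weak sites only that rose numbered 142 with edgeR and TMM factors (4.74%, beside 5.46% of all genes tested), 144 with edgeR and DESeq2 size factors (4.81%, beside 5.51%), 193 without the fold limit (6.44%, beside 6.89%) and 52 with weak sites under 20 reads (2.43%, beside 3.87%). Those that fell numbered 404 without the fold limit (13.5%, beside 12.4%). Changes in *Thrb*-KO numbered 17 with weak sites under 20 reads, which leaves 2141 genes (0.794%, beside 1.01%). Differences between genotypes in hypothyroid mice numbered 221 without the fold limit (7.38%, beside 6.85%) and 138 in replicates 3 to 5 alone (4.61%, beside 4.78%). In hyperthyroid mice they numbered 417 without the fold limit (13.9%, beside 12.1%), 293 in replicates 3 to 5 alone (9.78%, beside 8.47%) and 106 with weak sites under 20 reads (4.95%, beside 4.86%). Leaving out each library gave 86 to 125 that rose, 160 to 191 that fell, 27 to 34 in *Thrb*-KO, 111 to 153 interactions, and 77 to 105 and 154 to 180 differences between genotypes. The shares of all genes beside these ranges are not given here, so nothing about the sites is read from them. With the replicate number as a block 99 rose (3.30%, beside 3.99% of all genes), 183 fell (6.11%, beside 5.86%) and 38 changed in *Thrb*-KO (1.27%, beside 1.25%). Interactions numbered 179 (5.97%, beside 5.73%). Differences between genotypes numbered 103 in hypothyroid (3.44%, beside 3.74%) and 178 in hyperthyroid mice (5.94%, beside 5.34%). None of the 6 counts was over 1.5 times the main count. The cause of these moves was not tested. TMM scaling of CPM, the library sets alone and unadjusted p were chosen after seeing the data.

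For the T3 change in wild type, 980 settings of the 35 named genes lost 6 calls and gained 8. They reversed 0 directions where the main or the other setting called the gene. A change of sign in a gene called in neither was not counted. The named genes' responses in *Thrb*-KO and differences between genotypes were not recomputed under other settings. *Prl* lost its call without the filter on low values (adjusted p = 0.152), and *Gata2* in 5 settings, each with a log2 change of -0.58 or -0.57, under the fold limit. *Six3* gained a call in 5, *Cpt1a* in 2 and *Drd2* in 1. Low read counts limit single peaks: a member rests on 8 to 29 reads of merged libraries.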
